A study of Homo sapiens with 24 samples.

Results

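The genes described here encode 10 enzymes and cofactors that write, read or erase the repressive marks of DNA methylation and of lysine 27 methylation on histone H3: DNMT1, UHRF1, DNMT3A, DNMT3B, TET1, TET2, TET3, EZH2, EZH1 and SUZ12. They were chosen by symbol among the 60617 genes of the deposited table, and all 10 were among the 15476 genes tested. RNA-seq was done in 686Tu (MDA686TU) cells, a human head and neck cancer cell line, in 4 groups of 6 libraries taken after 24 h: untreated control, EGCG (epigallocatechin gallate, a green tea polyphenol) at 40 µM, resveratrol (a stilbene polyphenol of grapes) at 15 µM, and the combination of both at these doses. Resveratrol was added from a stock in DMSO and EGCG in water, and whether the control cells received DMSO is not given in the sources used here, so that an effect of the solvent and one of resveratrol cannot be told apart. The question put to the data was whether either polyphenol or their combination altered the transcript levels of these genes. EGCG in particular has been described as an inhibitor of the DNMT1 enzyme, an activity that a transcript level does not measure.

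DNA methylation is copied after each round of replication, when UHRF1 finds the half-methylated cytosines behind the fork and brings DNMT1 to them. DNMT3A and DNMT3B place new methyl groups, and the TET enzymes oxidise them as a first step of removal. EZH2 or its relative EZH1 is the catalytic subunit of Polycomb repressive complex 2 (PRC2), which methylates lysine 27 of histone H3 and needs SUZ12 as its scaffold. In carcinomas EZH2 and UHRF1 are known as genes of dividing cells and as E2F targets, whereas EZH1 is the form that resting cells keep.

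Library totals lay between 7034872 and 11735574 counts. Replicates 1 to 3 of all groups had 0.249 to 0.326% of their counts on mitochondrial genes and replicates 4 to 6 had 0.448 to 0.775%, so the values in both sets are given beside results that differ between them. All 10 squamous epithelial markers were expressed. Their sum was 161208 to 170720 normalized counts in the control and 154669 to 174450 with EGCG. It was lower, at 134266 to 142333, with resveratrol and at 132954 to 144812 with the combination. The 5 leukocyte markers summed to at most 3.86 normalized counts in any library and none of them was tested. The 3 endothelial markers summed to at most 19.9 and the 2 melanocyte markers to at most 17.3 normalized counts. Of the 4 fibroblast markers COL3A1 and PDGFRB were too low to be tested, while COL1A1 was expressed and the summed list ranged over 1113 to 1345 normalized counts in the control, 889 to 1108 with EGCG, 1310.4 to 1552 with resveratrol and 1520 to 1745 with the combination. The part of this list in the results below was not tested.

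The start regions of 4 members are shown because UHRF1 and EZH2 fell together with resveratrol while DNMT3B rose and DNMT1 did not pass the main test. Each sequence runs from 150 bases before to 20 bases after a RefSeq transcription start (GRCh38.p14, gene strand, 5′ to 3′). Capitals mark any of the E2F words TTTCCCGC, TTTCGCGC, TTTGCCGC and TTTGGCGC on either strand. Of the starts of a gene the first with such a word inside this stretch is shown, so the choice favoured a match. DNMT3B had no such word at any start, and its first start is shown.
DNMT1, chr19:10194934-10195103, minus strand: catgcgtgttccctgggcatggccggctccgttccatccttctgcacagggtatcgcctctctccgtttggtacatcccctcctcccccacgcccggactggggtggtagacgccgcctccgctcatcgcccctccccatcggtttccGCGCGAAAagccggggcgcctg
UHRF1, chr19:4909351-4909520, plus strand: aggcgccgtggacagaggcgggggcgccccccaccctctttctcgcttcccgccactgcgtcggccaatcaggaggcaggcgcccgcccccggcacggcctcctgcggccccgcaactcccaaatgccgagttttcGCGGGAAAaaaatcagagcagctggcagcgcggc
EZH2, chr7:148884272-148884441, minus strand: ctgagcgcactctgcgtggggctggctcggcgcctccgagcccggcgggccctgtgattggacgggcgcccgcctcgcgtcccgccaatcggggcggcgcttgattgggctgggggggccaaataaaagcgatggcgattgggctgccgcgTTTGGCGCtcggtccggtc
DNMT3B, chr20:32779702-32779871, plus strand: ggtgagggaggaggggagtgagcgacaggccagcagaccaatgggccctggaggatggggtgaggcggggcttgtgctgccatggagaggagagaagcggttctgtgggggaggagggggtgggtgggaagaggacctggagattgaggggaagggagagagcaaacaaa
Over the longer RefSeq windows, from 250 bases before to 50 after each start, at least 1 of these words lay in 6 of the 22 windows of the members, in DNMT1, UHRF1, EZH2, EZH1 and SUZ12, and in 3.31% of all 35116 windows. The 5 members with a word include genes that fell, a gene that rose and genes that did not pass the test. Other words were searched in the same windows. TTTGAA or TTCGAA lay in 3 of the 22 windows of the members and in 16.4% of all windows. TGACNNNGC, where N is any base, lay in 1 and in 13.3%, and CCAAT in 8 and in 34.6%. The words were chosen after the values were known, and a match describes letters and not a bound site.

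With EGCG alone EZH2 was the 1 of the 10 members that passed the test, a call near its limit that several alternatives given below did not keep. By edgeR's quasi-likelihood test (adjusted p under 0.1 over all tested genes and p under 0.05, the limits of the study) 1 member passed, beside 1.76% of all tested genes, and it was lower, as were 0.859% of all tested genes. With resveratrol 6 members passed, beside 56.9% of all tested genes, of which DNMT3A, DNMT3B and EZH1 rose, beside 28.9% of all tested genes, and UHRF1, EZH2 and TET3 fell, beside 28%. With the combination 5 members passed, beside 59.8% of all tested genes, of which DNMT3A, DNMT3B and EZH1 rose and UHRF1 and EZH2 fell, beside 29.9% of all tested genes in each direction. The 6 libraries of UHRF1, DNMT3A, DNMT3B and EZH2 with resveratrol did not overlap those of the control, as was found in 31.1% of all tested genes, and with the combination this held for UHRF1, DNMT3B and EZH2, beside 31.9% of all tested genes. With resveratrol and with the combination these counts are close to the share of all genes, so the number of members that moved is no result about the members, and the values below describe which of them moved and how far.

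**Figure D1:**
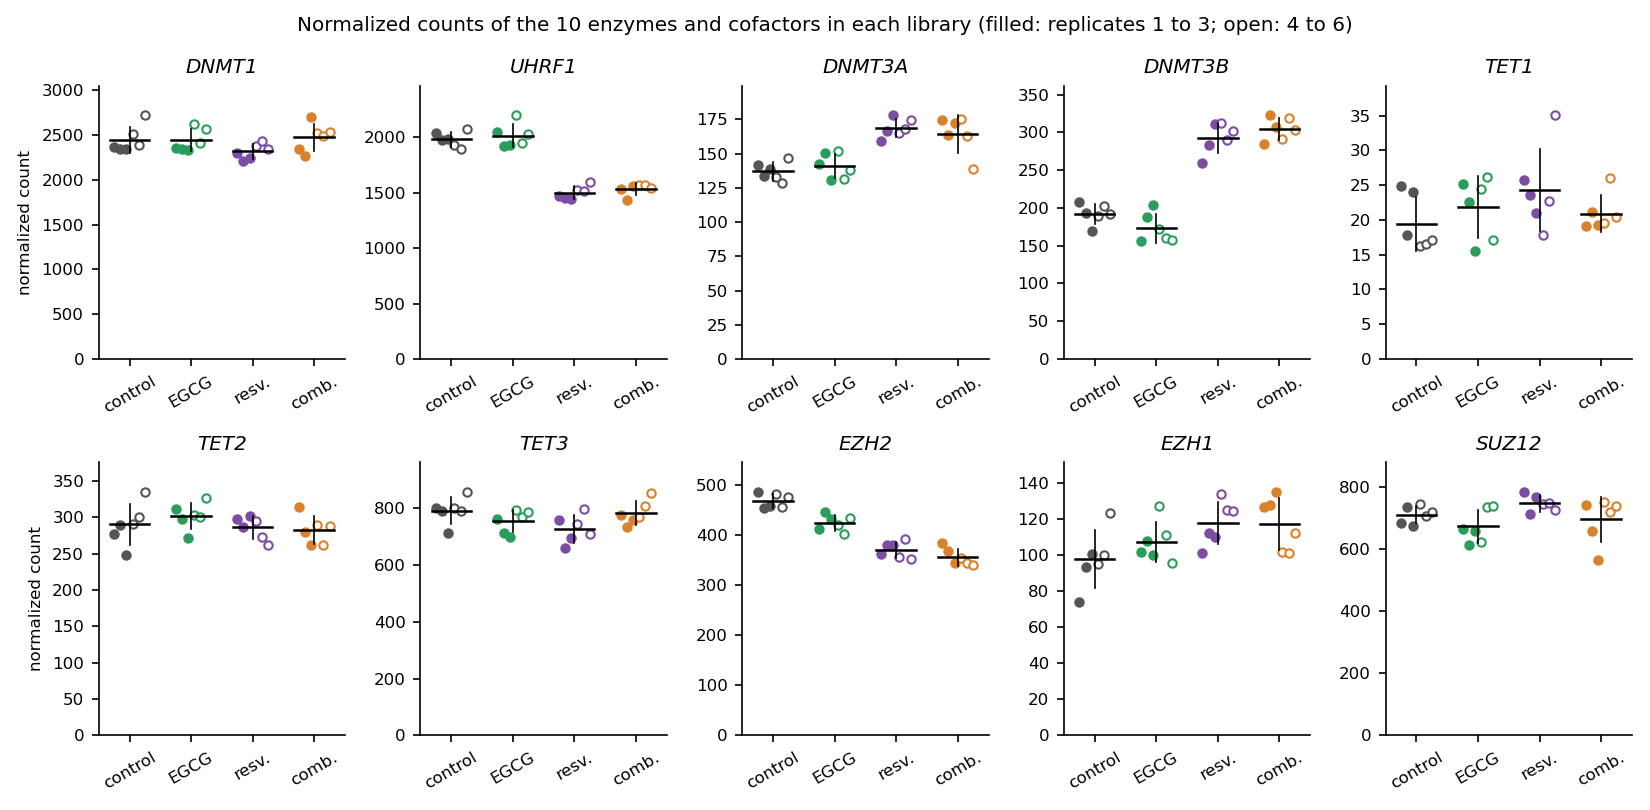
Normalized counts (vertical axis, from 0) of the 10 members in each of the 24 libraries, by group (horizontal axis), with filled points for replicates 1 to 3, open points for replicates 4 to 6, a bar at the mean and a line of 1 SD to each side. UHRF1 and EZH2 lie lower and DNMT3B higher in all resveratrol and combination libraries than in all control libraries, whereas DNMT1, TET1, TET2 and SUZ12 overlap between all groups.

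DNMT1, the maintenance methyltransferase (chr19:10133342-10231286, minus strand), did not pass the main test in any of the 3 comparisons with the control. It ranged from 2339 to 2721 normalized counts in the control (median 2376), from 2337 to 2623 with EGCG (2385), from 2214 to 2438 with resveratrol (2323) and from 2269 to 2697 with the combination (2506). All groups overlapped. The log2 fold change with EGCG was -0.00 ± 0.04 (SE) (adjusted p = 0.996), with a 95% interval from -5.72 to 5.77% of the control level. With resveratrol the log2 fold change was -0.07 ± 0.04 (adjusted p = 0.140) and with the combination 0.02 ± 0.04 (adjusted p = 0.678). The fall with resveratrol passed when edgeR's model held a replicate block (-0.07, adjusted p = 0.0610) or a term for the replicate sets (-0.07, adjusted p = 0.0704). When libraries were scaled by their totals alone the combination value was 0.10 (adjusted p = 0.0227) and thus passed. The gene S1PR2, which overlaps DNMT1 on the same strand, had a mean of 25.25 counts against 2451 for DNMT1.

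UHRF1, the partner that recognises half-methylated DNA (chr19:4903080-4962154, plus strand), fell with resveratrol and with the combination. Control libraries held 1893 to 2074 normalized counts (median 1979) and EGCG libraries 1924 to 2199 (1991). Resveratrol libraries held 1447 to 1600.1 (1491), and combination libraries 1432 to 1569 (1556). Every resveratrol and combination library lay below every control and EGCG library. The log2 fold change was -0.40 ± 0.03 with resveratrol (adjusted p = 4.18e-12) and -0.37 ± 0.03 with the combination (adjusted p = 3.02e-11), the latter a change of -22.4% (95% interval -26.1 to -18.5%). With EGCG it was 0.02 ± 0.03 (adjusted p = 0.9005). In these bulk libraries fewer cells in a given state and less RNA per cell cannot be told apart.

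DNMT3B, a de novo methyltransferase (chr20:32762385-32809359, plus strand), made the largest change of the 10 members with resveratrol and with the combination. The control libraries ranged from 169.8 to 207 normalized counts (median 193), those with EGCG from 157 to 204 (166), those with resveratrol from 259.8 to 313 (296) and those with the combination from 285 to 323 (305). Both resveratrol-containing groups stood clear of the control, and EGCG libraries overlapped it. DNMT3B rose 1.53-fold with resveratrol (log2 fold change 0.61 ± 0.06, adjusted p = 2.28e-10) and 1.59-fold with the combination (0.67 ± 0.06, adjusted p = 2.45e-11). With EGCG alone the log2 fold change was -0.15 ± 0.07, which did not pass (adjusted p = 0.409), with -0.06 in replicates 1 to 3 and -0.26 in replicates 4 to 6.

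DNMT3A, the other de novo methyltransferase (chr2:25227855-25342590, minus strand), rose less. It had 129 to 147 normalized counts in the control (median 136) and 131 to 152 with EGCG (140.2). With resveratrol it had 159.5 to 178 (167), and with the combination 139 to 175 (168). The resveratrol libraries did not overlap the control, whereas replicate 6 of the combination, at 139, lay within the control range. The log2 fold change was 0.30 ± 0.06 with resveratrol (adjusted p = 0.000148), 0.27 ± 0.07 with the combination (adjusted p = 0.000712) and 0.03 ± 0.08 with EGCG (adjusted p = 0.943).

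Of the TET dioxygenases TET3 passed the main test, with resveratrol, and TET1 and TET2 did not pass it in any comparison with the control. TET3 (chr2:73984910-74108176, plus strand) ranged from 712 to 859 normalized counts in the control (median 795), 699 to 793 with EGCG (766), 660.3 to 798 with resveratrol (727) and 735 to 853 with the combination (773), with overlap of all groups. It fell with resveratrol by 0.12 ± 0.05 on the log2 scale (adjusted p = 0.0274), a change of -8.00%. This call was lost when libraries were scaled by their totals alone (-0.03, adjusted p = 0.573) and in replicates 1 to 3 alone (-0.12, adjusted p = 0.130). It was also lost without control replicate 6 or without resveratrol replicate 2, at -0.09 each. In these 2 cases the adjusted p stayed under 0.1 and the limit on p was missed. With the combination the log2 fold change was -0.01 ± 0.05 (adjusted p = 0.843).

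TET2 (chr4:105145875-105279816, plus strand) had 248 to 335 normalized counts in the control (median 290.3), and the treated libraries lay between 262 and 326. Its log2 fold changes were 0.06, -0.01 and -0.04 with EGCG, resveratrol and the combination, none of which passed. The replicate sets had opposite signs with resveratrol, at 0.13 in replicates 1 to 3 and -0.16 in replicates 4 to 6. The same held for the combination, at 0.07 and -0.14. TET1 (chr10:68560337-68694487, plus strand) was close to the limit of detection, with 16.3 to 24.9 normalized counts in the control and 15.5 to 35.1 over the treated libraries. Its log2 fold change with resveratrol was 0.30 with a 95% interval from -0.04 to 0.65, and it did not pass (adjusted p = 0.135), with 0.07 in replicates 1 to 3 and 0.58 in replicates 4 to 6. Under scaling by library totals alone the value was 0.39 and passed (adjusted p = 0.0491). With the combination TET1 had -0.17 in replicates 1 to 3 and 0.39 in replicates 4 to 6. Within TET1 lies the pseudogene COX20P1 on the same strand, whose mean of 27.75 counts exceeded that of TET1 itself, 22.0.

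EZH2, the main catalytic subunit of PRC2 (chr7:148807257-148884321, minus strand), was lower in all 3 treated groups. The control held 455 to 487 normalized counts (median 467), EGCG 402 to 446 (427), resveratrol 352 to 392 (371) and the combination 339 to 384 (349). No treated library reached the lowest control library, and the EGCG libraries lay above all resveratrol and combination libraries. EZH2 fell by 0.14 ± 0.04 on the log2 scale with EGCG (adjusted p = 0.0782), a change of -9.47% (95% interval -14.5 to -4.11%). Groups that do not overlap were found in 1.63% of all tested genes in this comparison. It fell by 0.33 ± 0.04 with resveratrol (adjusted p = 1.54e-08) and by 0.40 ± 0.04 with the combination (adjusted p = 4.26e-10).

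The call with EGCG is near its limit. The log2 fold change was -0.15 in the DESeq2 Wald test (adjusted p = 0.131). Leaving out 1 library at a time raised the adjusted p of edgeR's test above 0.1 in 7 of the 24 cases. All 7 were among the 12 libraries of the groups compared, namely control replicates 1, 4 and 6 and EGCG replicates 1, 3, 4 and 5. In replicates 1 to 3 the log2 fold change was -0.11 and in replicates 4 to 6 it was -0.18.

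EZH1, the alternative catalytic subunit (chr17:42700275-42745049, minus strand), had the opposite sign. It ranged from 73.7 to 123 normalized counts in the control (median 97.4), 95.3 to 127 with EGCG (105), 101 to 134 with resveratrol (118) and 101 to 135 with the combination (119). All groups overlapped. EZH1 rose by a log2 fold change of 0.27 ± 0.10 with resveratrol (adjusted p = 0.0200), with 0.29 in replicates 1 to 3 and 0.26 in replicates 4 to 6. The combination gave 0.27 ± 0.10 as well (adjusted p = 0.0183), but here the sets went apart, with 0.55 in replicates 1 to 3 and -0.02 in replicates 4 to 6, so that this call rests on the first set.

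SUZ12, the scaffold of PRC2 (chr17:31937007-32001038, plus strand), did not pass the main test in any comparison with the control. It had 675 to 745 normalized counts in the control (median 713), 614 to 741 with EGCG (663), 712 to 785 with resveratrol (748) and 566 to 753 with the combination (729). The groups overlapped, and replicate 3 of the combination was the lowest library of all. The log2 fold changes were -0.07, 0.08 and -0.03, each with an SE of 0.05. The value with resveratrol passed when these groups alone were fitted (0.08, adjusted p = 0.0484) and under scaling by library totals alone (0.17, adjusted p = 0.00889). A near copy of the gene, SUZ12P1, had a mean of 102 counts beside 718 for SUZ12, and how reads shared by both were counted is not given in the sources used here.

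**Figure D2:**
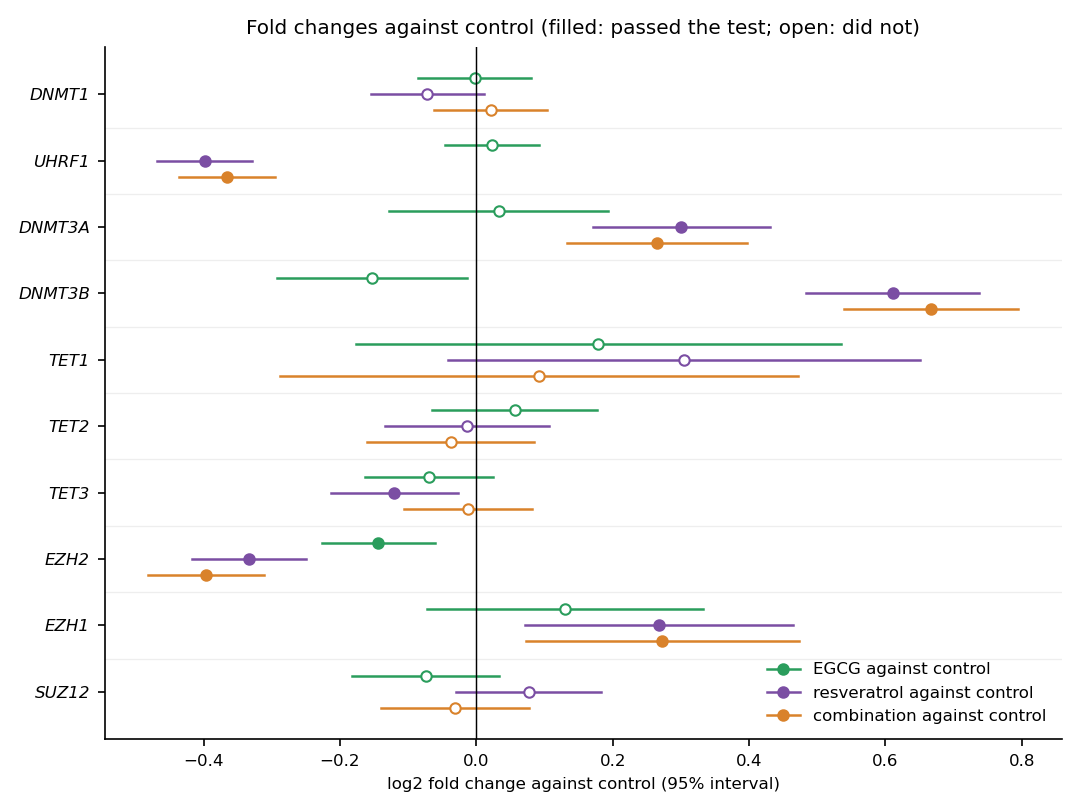
Log2 fold change against control (horizontal axis) of each member (rows) with EGCG, resveratrol and the combination. Points have 95% intervals derived from the p of edgeR's test and are filled where the test was passed. The resveratrol and combination intervals of UHRF1 and EZH2 lie below 0 and those of DNMT3A, DNMT3B and EZH1 above it, and of the EGCG points that of EZH2 is the filled one, at -0.14.

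Scaling by library totals alone moved the median of all tested genes by up to 0.09 on the log2 scale and the balance of calls with it. Under it 5 members rose and 2 fell with resveratrol, against 3 and 3 in the main test, while the higher share of all called genes went from 50.7 to 68.3%. With the combination 4 rose and 2 fell, against 3 and 2, and the higher share of all called genes went from 50 to 64.6%. UHRF1 and EZH2 still fell and DNMT3A, DNMT3B and EZH1 still rose with resveratrol and with the combination under this scaling.

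The transcripts of EZH2 and EZH1 were also read as a ratio of counts within each library, which no scaling between libraries affects. There were 3.85 to 6.60 EZH2 counts per EZH1 count in the control libraries (median 4.71), 3.30 to 4.56 with EGCG (4.10), 2.67 to 3.58 with resveratrol (3.26) and 2.55 to 3.48 with the combination (3.04). Resveratrol and combination libraries lay below all control libraries. The ratio fell by 34.9% with resveratrol and fell by 37.1% with the combination (adjusted p = 0.0162 each, 2-sided exact permutation test of 6 against 6 libraries, adjusted over 15 tests), and the unadjusted p of 0.00216 is the smallest such a test can give. With EGCG the change was -17.9%, which did not pass the limit of 0.05 set for the ratios (adjusted p = 0.0933 by the same test). For the combination the log2 difference amounted to -0.90 over replicates 1 to 3 but -0.44 over replicates 4 to 6.

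For the maintenance enzymes the ratio was taken to PCNA, the sliding clamp of replication to which DNMT1 binds. DNMT1 counts per PCNA count ranged from 1.69 to 2.13 in the control (median 1.77), 1.74 to 2.09 with EGCG (1.85), 1.98 to 2.29 with resveratrol (2.07) and 1.99 to 2.62 with the combination (2.31). Control replicate 6, at 2.13, lay within the range of the treated groups, and the other control libraries lay below all resveratrol and combination libraries. The ratio rose by 16.4% with resveratrol (adjusted p = 0.0271, exact permutation test) and by 27.5% with the combination (adjusted p = 0.0195, exact permutation test). The call with resveratrol was lost when any of control replicates 1 to 5 was left out, with an adjusted p of 0.0541 to 0.0595 by the exact permutation test. UHRF1 counts per PCNA count had medians of 1.45, 1.57, 1.35 and 1.46 in the control, EGCG, resveratrol and combination libraries, and none of its 5 comparisons passed. PCNA itself fell by 0.29 on the log2 scale with resveratrol and by 0.33 with the combination.

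**Figure D3:**
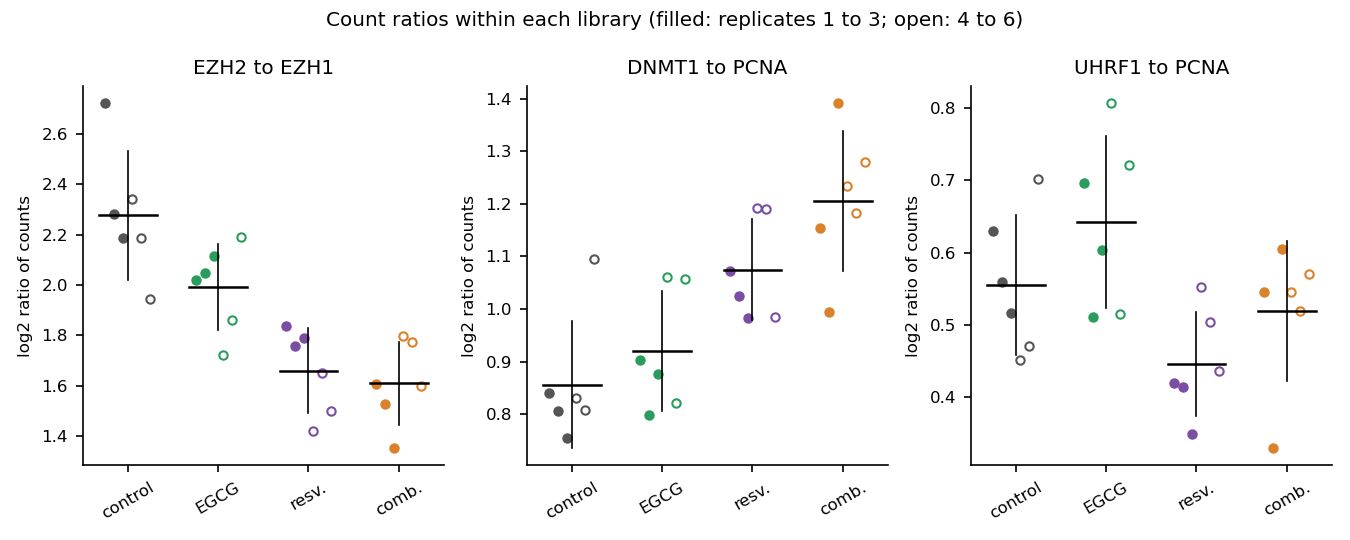
Log2 ratio of raw counts (vertical axes) of EZH2 to EZH1, DNMT1 to PCNA and UHRF1 to PCNA in each library by group (horizontal axis), with filled points for replicates 1 to 3, open points for replicates 4 to 6, a bar at the mean and a line of 1 SD to each side. EZH2 to EZH1 is lower and DNMT1 to PCNA mostly higher with resveratrol and the combination, while UHRF1 to PCNA overlaps between all groups.

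The combination was then set against each single agent. Against resveratrol no member passed edgeR's test, beside 7.86% of all tested genes. At an unadjusted p under 0.05 there were 3 members, beside 18.2% of all tested genes. These were DNMT1 (log2 difference 0.09 ± 0.04, adjusted p = 0.210), TET3 (0.11 ± 0.05, adjusted p = 0.196) and SUZ12 (-0.11 ± 0.05, adjusted p = 0.269). SUZ12 had -0.21 in replicates 1 to 3 and -0.01 in replicates 4 to 6. In the DESeq2 Wald test the number that passed was also 0, whereas 2 passed edgeR's test with the replicate block, DNMT1 (adjusted p = 0.0741) and TET3 (adjusted p = 0.0736), and 1 passed with a term for the replicate sets, DNMT1. EZH2 differed by -0.06 ± 0.04 with a 95% interval of -9.87 to 1.75%, DNMT3B by 0.06 ± 0.06 with an interval of -4.23 to 13.0%, and UHRF1 by 0.03 ± 0.04 with an interval of -2.58 to 7.52%. EZH1 differed by 0.00 ± 0.09 over all libraries, by 0.26 in replicates 1 to 3 and by -0.28 in replicates 4 to 6.

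Against EGCG 4 members passed, beside 57.8% of all tested genes, 2 of them higher and 2 lower, beside 28.7 and 29.1% of all tested genes. DNMT3B was higher in the combination by 0.82 ± 0.06 on the log2 scale (adjusted p = 2.71e-13) and DNMT3A by 0.23 ± 0.07 (adjusted p = 0.00287). UHRF1 was lower, with a log2 difference of -0.39 ± 0.03 (adjusted p = 8.76e-12), and EZH2 likewise at -0.25 ± 0.04 (adjusted p = 5.51e-06). EZH1 did not pass, with 0.34 in replicates 1 to 3 and -0.08 in replicates 4 to 6. Scaling by library totals alone gave 6 higher and 2 lower members here, with 63.8% of all called genes higher against 49.6%.

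The interaction term asks whether the combination departs from the sum of both single effects on the log2 scale. No member passed it in edgeR, beside 0.265% of all tested genes, nor in the DESeq2 Wald test. Of the genes that passed it 78% were higher, and 66.7% under scaling by library totals alone. At an unadjusted p under 0.05 there were 2 members, DNMT3B at 0.21 ± 0.09 (adjusted p = 0.559) and TET3 at 0.18 ± 0.07 (adjusted p = 0.446), beside 7.72% of all tested genes. For EZH2, which fell with each agent alone, the term was 0.08 ± 0.06 (adjusted p = 0.807).

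The members' levels were compared in FPKM, which are depth-scaled counts per gene length. In the control UHRF1 led with a mean of 44.2 FPKM, followed by DNMT1 at 28.6, SUZ12 at 12.4, EZH2 at 11.9, TET3 at 7.39, DNMT3B at 4.76, TET2 at 2.02, EZH1 at 1.60, DNMT3A at 1.31 and TET1 at 0.232. SUZ12 and EZH2 overlapped between libraries, as did TET2 with EZH1 and EZH1 with DNMT3A, and the other neighbours in this order did not. With resveratrol EZH2 stood at 9.39 FPKM and SUZ12 at 13.1 with no overlap. DNMT3B, at 7.25 FPKM with resveratrol and 7.54 with the combination, came to the place before TET3 in the order, at 6.79 and 7.32 FPKM, with overlapping libraries.

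**Figure D4:**
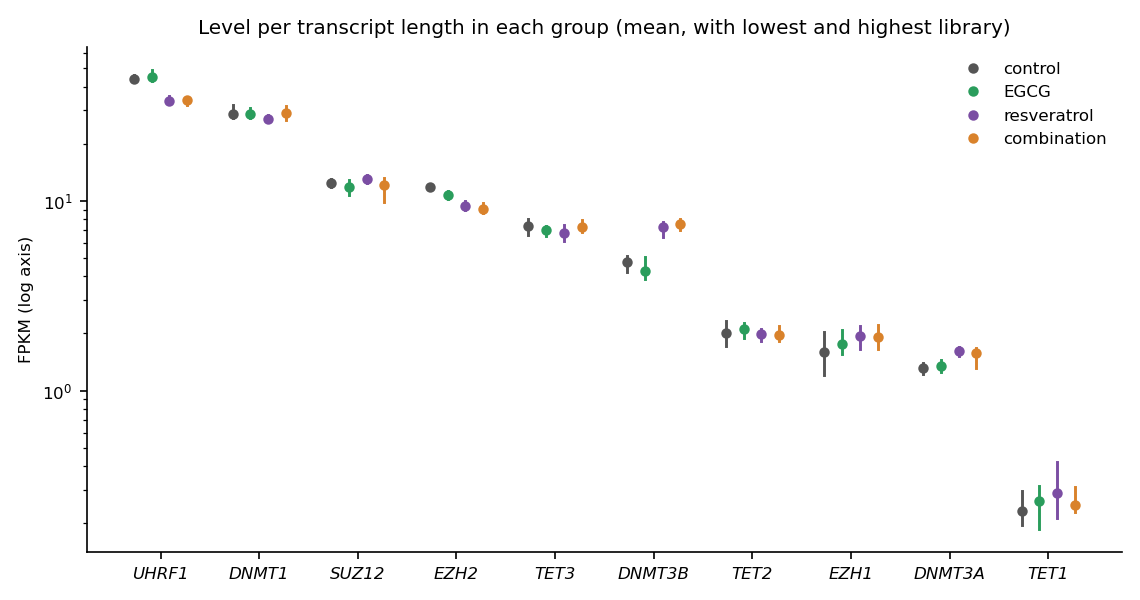
Mean FPKM of each member (vertical log axis) in the 4 groups, with lines from the lowest to the highest of 6 libraries and members ordered by their control level. UHRF1 is the highest at 44.2 FPKM in the control and TET1 the lowest at 0.232 FPKM, and DNMT3B reaches the level of TET3 with resveratrol and the combination.

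The genes that work with these enzymes were followed in lists set by function. Their counts stand beside the shares of all tested genes given above, which were 1.76% with EGCG, 56.9% with resveratrol (28.9% higher and 28% lower) and 59.8% with the combination (29.9% in each direction), and several depend on the scaling, so the counts under library totals alone follow each list. Of 8 tested partners and relatives of DNMT1 and UHRF1, PCNA among them, 5 fell and 1 rose with the combination, 4 fell and 1 rose with resveratrol, and with EGCG the number that passed was 0. Under library totals alone 3 fell and 3 rose with resveratrol and 4 fell and 1 rose with the combination. Their median log2 fold change with the combination was -0.22, beside -0.00 over all tested genes. CDCA7, which takes the remodeler HELLS to chromatin, fell by 0.71 on the log2 scale with the combination, and USP7, a deubiquitinase that stabilises DNMT1 and UHRF1, fell by 0.30. UHRF2, the relative of UHRF1, rose by 0.22. TRDMT1, a relative of the DNA methyltransferases that methylates transfer RNA, fell by 1.05, at 12.9 to 25.8 normalized counts in the control and 5.64 to 13.0 with the combination.

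Among the 10 tested subunits of PRC2 other than the members, 4 fell and 2 rose with the combination, 4 fell and 1 rose with resveratrol, and 0 passed with EGCG. The 6 of 10 that passed with the combination are close to the share of all tested genes, and under library totals alone the balance turned with resveratrol, to 2 lower and 4 higher, with 3 lower and 2 higher for the combination. PHF19, a subunit that helps to recruit the complex, fell from 621 to 683 normalized counts in the control to 359 to 404 with resveratrol and 347 to 399.6 with the combination, with no overlap. Its log2 fold change was -0.84 with the combination (adjusted p = 9.39e-19), larger in size than that of any of the 10 members. The core subunit EED fell by 0.19 and JARID2 by 0.30, whereas PHF1, a relative of PHF19, rose by 0.44. KDM6B, 1 of 2 demethylases for the same histone mark, rose by 0.48, and KDM6A had a log2 fold change of 0.02 (adjusted p = 0.885).

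PRC1, the second Polycomb complex, had 5 of 19 tested subunits higher and 4 lower with the combination, among them CBX6 at 0.44 and BMI1 at -0.50. With resveratrol 6 rose and 4 fell, and 0 passed with EGCG. Under library totals alone 7 rose and 0 fell with resveratrol, and 7 rose and 1 fell with the combination. The median of the list with the combination was -0.02.

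Of 9 tested genes of active demethylation 5 were higher and 1 lower with the combination, beside 29.9% of all tested genes in each direction, with a median of 0.27. IDH1 and IDH2, which make the 2-oxoglutarate that TET enzymes consume, rose by 0.68 and 0.89, and GADD45A by 0.54. With resveratrol 5 rose and 2 fell (1 under library totals alone), and 0 passed with EGCG. The methyl-CpG readers had 3 of 8 higher and 2 lower with the combination and 4 higher and 2 lower with resveratrol, with 0 for EGCG, and 6 higher and 2 lower in both under library totals alone. MBD2 fell by 0.39 and ZBTB4 rose by 0.24 with the combination. In the supply of the methyl donor 3 of 7 genes rose and 4 fell with the combination, 3 rose and 3 fell with resveratrol, and 0 passed with EGCG, while library totals alone gave 3 higher and 2 lower with the combination and 4 and 2 with resveratrol. MAT2A, which makes S-adenosylmethionine, fell by 0.41 with the combination.

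Of 26 tested DNA replication genes, 15 fell and 7 rose with resveratrol and likewise with the combination, beside 28 and 29.9% of all tested genes that fell, and 0 passed with EGCG. Under library totals alone 13 fell in each, and 8 and 7 rose. Their summed level was 40374 to 41888 normalized counts in the control, 40052 to 42111 with EGCG, 35515 to 36690.3 with resveratrol and 35069 to 36031 with the combination. MCM5 and MCM6, of the replicative helicase, fell by 0.50 and 0.49 with the combination, GINS2 by 0.58 and TOP2A by 0.66. DNMT1, often grouped with them, had the log2 fold change of 0.02 given above. The part of this list in the fall of UHRF1 and EZH2 was not tested.

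Lists of genes known to be silenced by DNA methylation were read as well. Of 12 genes often silenced in carcinomas, 9 were expressed enough to be tested, and RARB, SFRP1 and WIF1 were not. With the combination 5 rose and 1 fell, with resveratrol 5 rose and 1 fell, and with EGCG 1 rose, CDH1. Under library totals alone 6 rose and 0 fell with resveratrol and with the combination. CDH1, the epithelial cadherin, had 3530 to 3633 normalized counts in the control and 3735 to 3963 with EGCG with no overlap. Its log2 fold change was 0.12 (adjusted p = 0.00955 by edgeR's test). CDH1 was also 1 of the squamous epithelial markers above, and at its control level it was not a silenced gene in these cells. It rose by 0.43 with the combination, CDKN2A by 0.33 and DAPK1 by 0.43. Of 12 germline genes 3 were tested, and 6 of the 12 had no count in any library. MAGEA4 rose by 1.19 with resveratrol and by 1.17 with the combination, from 13.8 to 29.4 normalized counts in the control to 39.0 to 57.8 with the combination, while MAGEA1 fell by 0.16 with the combination, a call that was lost under library totals alone. With EGCG 0 of the 3 passed, and 2 rose and 1 fell with resveratrol and with the combination. The 12 germline genes together held 854 to 930 normalized counts in the control. Members of this list other than MAGEA4 were thus already expressed in the untreated cells. DNA methylation itself was not measured in these samples.

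**Figure D5:**
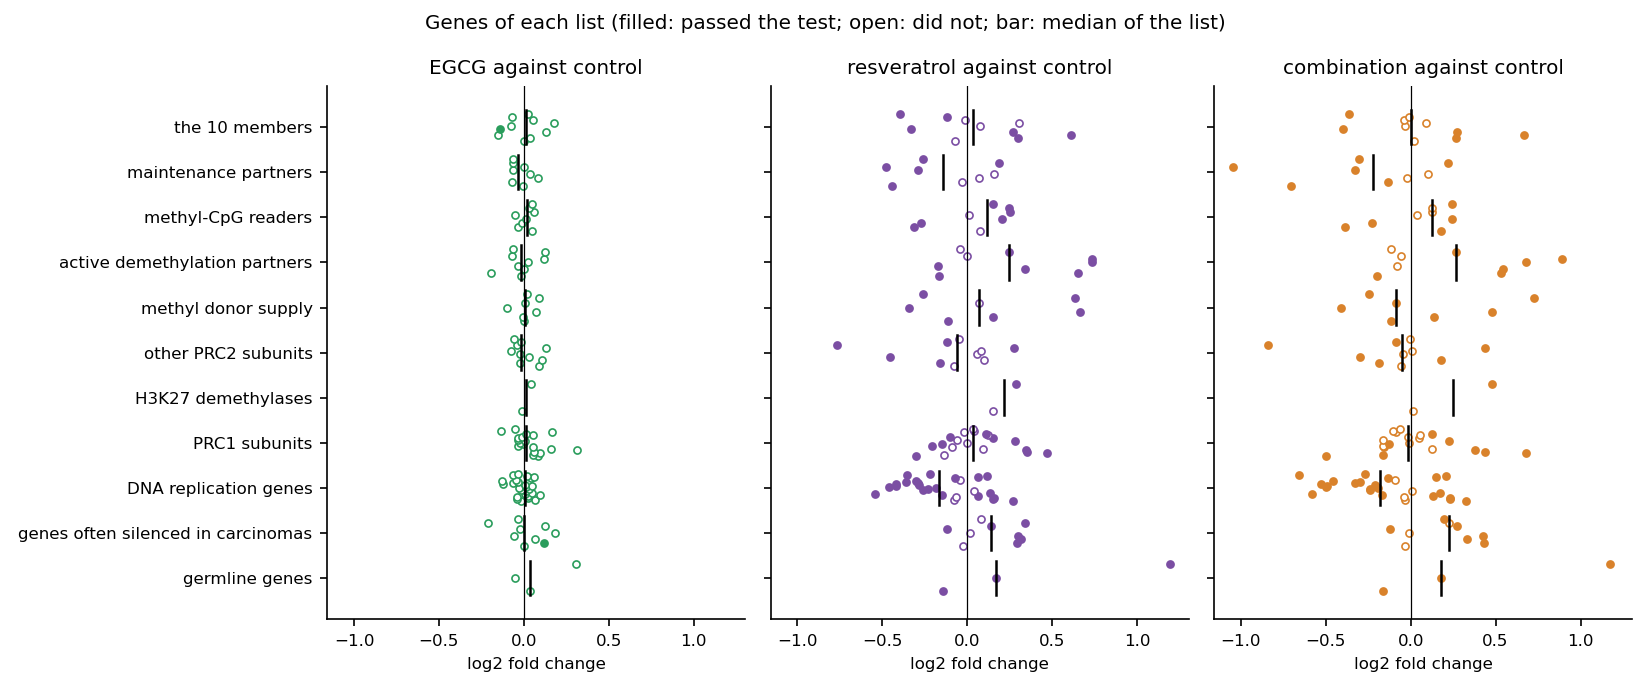
Log2 fold changes against control (horizontal axes) of the tested genes of each list (rows) with EGCG, resveratrol and the combination, as points that are filled where edgeR's test was passed, with a bar at the median of each list. With EGCG 2 points are filled, EZH2 among the members and CDH1 among genes often silenced in carcinomas, and with the combination the replication genes have a median of -0.18.

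Across all 24 libraries, which include the differences between the groups, the genes with the pattern most like each member were listed by Pearson's r of log2 CPM (counts scaled to library size). For UHRF1 they were TRIO (r = 0.983), TENM2 and SEPTIN9, for EZH2 they included CHORDC1 (0.947) and MT1E, and for DNMT3B IRF7 (0.967), MARCKSL1 and FTH1P2. DNMT1 was nearest to MYH9 (0.878), PRPF8 and HERC2, and SUZ12 to RB1 (0.865), with RGPD8 also among its nearest genes. DNMT3A was nearest to GMIP (0.901), EZH1 to GFI1 (0.776), TET3 to TJP1 (0.844), TET2 to G3BP1 (0.751) and TET1 to TP53INP1 (0.642). Among the members themselves UHRF1 and EZH2 had an r of 0.82, DNMT3A and DNMT3B 0.78 and UHRF1 and DNMT3B -0.93.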

How the data were processed

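RNA was measured by RNA-seq in 24 libraries of 686Tu cells, 6 per group. The authors made stranded mRNA libraries, trimmed paired reads with Trimmomatic 0.36 and aligned them to GRCh38 with HISAT2 2.0.4; the counting program and its strand setting are not given in the sources used here. The authors deposited raw counts per gene, which were used as they stand, and 2 further tables. The deposited normalized counts, a signal per gene, equal the raw counts over DESeq2 size factors, and the FPKM deposited by the authors are these values per gene length.

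One model over the 24 libraries was fitted to the raw counts in edgeR 4.0.16 (R 4.3.3, TMM scaling, filterByExpr, quasi-likelihood test, 1 term per group), which was tested on simulated data. A call needed p under 0.05 and, after Benjamini-Hochberg adjustment, under 0.1, the limits in the study's methods. Values after ± are standard errors. Ratios were tested by exact permutation over libraries with a limit of 0.05 after adjustment. Nothing says that replicates came from separate cultures, so that p-values measure the spread between these samples, which may be technical. Alternatives were the DESeq2 1.42.0 Wald test, other scalings, filters and limits, a replicate block, and each library left out. The members and lists were chosen with earlier results of these data known. All members were named, with the genes of smallest p with the combination in each list and those of highest Pearson's r (prior count 2). Some genes that this rule names are not reported here. Gene positions are from GENCODE v44.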

Additional observations from a re-analysis of the deposited data

Results flagged for a closer look

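In 52 groups of 6 libraries (the 10 members and 3 ratios in 4 groups), 5 had a library whose gap to its nearest neighbour, over the range of the group, exceeded Dixon's 95% critical value for 6 libraries, and chance gives about 1 in 20 such groups. UHRF1 in combination replicate 2 had 1432 normalized counts, below the other 5 libraries at 1537 to 1569, and its log2 ratio to PCNA in that library was 0.33, below the others at 0.52 to 0.61. DNMT3A in combination replicate 6 had 139 normalized counts, below the others at 163 to 175. TET1 in combination replicate 5 had 26.1 normalized counts, above the others at 19.2 to 21.1. The log2 ratio of DNMT1 to PCNA in control replicate 6 was 1.09, above the others at 0.75 to 0.84. UHRF1 and DNMT3A kept their calls with the combination without these libraries.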

How the results depend on the processing

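Of the 544 repeats of the 16 called member values 525 kept direction and call, 18 lost the call and 1 reversed, and 12 values kept both in each repeat. The 4 that did not were EZH2 with EGCG, TET3 with resveratrol, EZH1 with the combination and, in replicates 4 to 6 alone, DNMT3A against EGCG (0.19, adjusted p = 0.145). The members called with EGCG numbered 0 under library totals alone, the DESeq2 Wald test, every gene with at least 1 count, an adjusted p under 0.05, and either set of 3 replicates alone, and 0 to 1 when 1 library was left out. The combination against EGCG gave 8 under library totals alone. Against resveratrol it gave 1 with a term for the replicate sets and 0 to 1 with 1 library left out, reaching 1 without resveratrol replicate 5 (TET3) or combination replicate 2 (DNMT1). The standard errors were widest for TET1 and EZH1, the members with the fewest counts. Except where a value above shows what moved with it, the cause was not tested.

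The labels number the replicates but name no pairs, so the samples were not taken as paired. Same-numbered libraries had correlations of -0.01 to 0.13 over 36 pairs, 2 of them over 0.1, and values this small do not exclude pairing. That 14 of 24 libraries correlated best with their own number is a hint from the data and not from the design, and the mean correlation was 0.03 for other numbers of the same set and -0.04 across the sets. With the replicate block 1, 7, 5, 2, 4 and 0 members were called with EGCG, resveratrol, the combination, the combination against resveratrol, against EGCG and for the interaction. The member that the block added with resveratrol was DNMT1, which was lower. The 2 against resveratrol were DNMT1 and TET3. With the replicate block no ratio passed, in a permutation over 6 signed pairs whose smallest p is 0.03125. After adjustment over 15 tests that p stays above 0.05 unless most tests reach it, so this permutation could not decide on the ratios. For EZH2 to EZH1 the log2 differences with resveratrol, the combination and the combination against EGCG were -0.62, -0.67 and -0.38. Their adjusted p in this permutation were 0.117, 0.117 and 0.156. For DNMT1 to PCNA the differences were 0.22, 0.35 and 0.29, with adjusted p of 0.156, 0.117 and 0.117.

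In replicates 1 to 3 the EZH2 to EZH1 log2 difference was -0.90 with the combination, -0.30 against resveratrol and -0.57 against EGCG, and in replicates 4 to 6 it was -0.44, 0.20 and -0.20. With 1 library left out the ranges were -0.35 to -0.20 for EZH2 to EZH1 with EGCG and -0.099 to 0.00092 for the combination against resveratrol, 0.20 to 0.27 for DNMT1 to PCNA with resveratrol and 0.094 to 0.17 for the combination against resveratrol, and for UHRF1 to PCNA -0.056 to 0.0024 with the combination and 0.054 to 0.11 against resveratrol. Without combination replicate 2 the last 2 differences from resveratrol passed (adjusted p = 0.0406 each), as did EZH2 to EZH1 with EGCG without control replicate 6 (adjusted p = 0.0186).

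Most of the values that changed sign were near 0 in the main test. EZH1 with the combination, a called value of 0.27, and TET1 with EGCG, at 0.18, were not. Under library totals alone DNMT1 with EGCG was 0.0045 and with resveratrol 0.016, TET2 with resveratrol 0.075 and with the combination 0.045, TET3 0.071 and SUZ12 0.052 with the combination, and EZH1 against resveratrol -0.00044. With every gene kept DNMT1 with EGCG was 0.00046, and with the compared groups alone TET3 with the combination was 0.0080. In replicates 1 to 3 DNMT1, UHRF1 and TET1 with EGCG were 0.0050, -0.018 and -0.070, TET2 with resveratrol 0.13, and TET1 and TET2 with the combination -0.17 and 0.073. In replicates 4 to 6 TET2 with EGCG was -0.0026, DNMT1, EZH1 and SUZ12 with the combination -0.016, -0.019 and 0.026, and EZH1 against resveratrol -0.28. With 1 library left out DNMT1 ranged over -0.023 to 0.033 and UHRF1 over -0.0024 to 0.038 with EGCG, TET2 over -0.057 to 0.034 with resveratrol, DNMT1 over -0.0069 to 0.056, TET2 over -0.082 to 0.0099, TET3 over -0.043 to 0.014 and SUZ12 over -0.056 to 0.024 with the combination, and EZH1 over -0.046 to 0.044 against resveratrol.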
